A study of Mus musculus with 6 samples.

Results

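The cell cycle and DNA replication genes followed here were 44 of the 21899 genes in the deposited count table. They were listed by symbol for their known roles in copying DNA or in mitosis, with no threshold on a measured value, although earlier results of these data were known when the list was made. Of the 44, 17 serve S phase and 27 serve mitosis. All 44 were detected and passed the filter on low counts, so each one was tested.

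A dividing cell first copies its DNA and then separates the copies. Before S phase the MCM helicase is loaded on origins, and in S phase it unwinds DNA ahead of the polymerases, while thymidylate and ribonucleotide reductase enzymes supply nucleotides. In mitosis cyclin B with Cdk1 starts the process, the spindle checkpoint holds it until every chromosome is attached, and kinesin motors and midzone proteins then part the chromosomes and the cell. Most neurons of the adult thalamus have left the cycle, and dividing cells of the adult brain parenchyma are mainly oligodendrocyte precursors, microglia, vascular cells and, after injury, reactive astrocytes. Many of these genes are transcribed mainly in cycling cells, under E2F factors in S phase and under factors that bind the CHR and CCAAT elements in G2 and mitosis, whereas some, such as Pcna and the MCM genes, also serve in DNA repair or persist outside S phase.

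The mice were male C57BL/6J of wild-type genotype, aged 8 to 10 weeks when purchased and thus older when tissue was taken. All had received 50 Gy of gamma radiation to the left thalamus, followed 2 weeks later by 2 µL of AAV9 at 5e+11 GC/mL in the thalamus. The 3 RC mice received AAV9 GFAP104::tdTomato, which carries a red fluorescent protein, and the 3 RN mice received AAV9 GFAP104::mND1-tdTomato, which adds mouse NeuroD1, a transcription factor that drives neuronal differentiation. GFAP104 is a synthetic astrocyte promoter, so the transgene is aimed at astrocytes and not at the dividing cells as such. Thalamus tissue beneath the hippocampus was removed 6 weeks after irradiation and sequenced whole, with 1 library per mouse, to ask what NeuroD1 changed in the irradiated tissue.

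Between 16561663 and 18657015 reads were counted on genes per library, and the 44 genes together took 0.0200% to 0.0284% of them. A count of 0 would allow up to 3 counts, or 0.160 to 0.179 CPM (counts scaled to library size with edgeR's TMM factors), a floor that covers counting error only. Neurod1, the gene the RN virus carries, was counted 84, 91 and 90 times in RC replicates 1, 2 and 3 and 1123, 1711 and 910 times in RN replicates 1, 2 and 3, the order used for all counts given here. This was a log2 fold change of RN over RC (log2FC) of 3.77, with SE 0.227 and adjusted p = 0.00178 by the quasi-likelihood test of edgeR after Benjamini-Hochberg adjustment. The thalamic neuron markers Tcf7l2 and Rora were present in all libraries, at 73.9 to 223 and 63.8 to 203 CPM. RC replicate 2 stood apart by its choroid plexus transcripts (Ttr at 7626 CPM, against 24.7 to 2480 in the other libraries), and RC replicate 3 by low hypothalamic and fibroblast markers, whose values are given beside the results they move with. In bulk tissue, fewer cells of a type and less RNA per cell cannot be told apart.

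The promoters of the group were read first, because elements shared there are a property that the choice of genes did not use. RefSeq (GRCm38.p6) gave a start site for 38 of the 44 genes, and the 250 bases before each start listed were searched on both strands for the CHR (the letters TTTGAA) and the CCAAT box (the pentamer of its name). A gene was counted when any of its listed starts had a match, so the shares also depend on how many starts are listed. A match to E2F was any of 4 heptamers, namely TTGGCGC as the commonest form of the textbook site, the variant of it that reads TTCCCGC instead, the variant that holds a CG step in its middle and reads TTCGCGC, and the last variant, which reads TTGCCGC. Tpx2, Gins2, Ccna2, Kif20a, Aurkb and Mcm4 had no entry. A CCAAT box was found for 31 of the 38 genes (81.6%), against 40.2% of the 11677 tested genes with a promoter. The CHR was found for 12 (31.6%, against 13.1%), and an E2F site for 11 (29.0%, against 15.4%). Among all 27025 genes with a promoter entry, whether or not tested here, the shares were 37.5% for the CCAAT box, 18.3% for the CHR and 9.01% for E2F sites.

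The elements were spread unevenly over the phases. Of the 23 mitosis genes matched, 21 held a CCAAT box, 9 a CHR and 5 an E2F site. Of the 15 replication genes, 10 held a CCAAT box, 3 a CHR and 6 an E2F site. Cdk1, E2f8, Mki67 and Ect2 held all 3 kinds of element, and Cdt1, Tyms, Tk1, Ccne1, E2f1, Birc5 and Nusap1 held none of them in this window. A match is a description of the letters and not of binding.

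Promoters of 6 genes are shown, on the gene's strand from 5′ to 3′ and ending at the base before the start site, with the elements in capitals. Ube2c and Kif11 are the genes with a CHR whose difference between the groups had the smallest p. Ube2c (chr2:164769679-164769928, plus strand) holds 6 CCAAT boxes, 2 of them overlapping on opposite strands, and a CHR at positions -29 to -24 from the start. Kif11 (chr19:37376132-37376381, plus strand) holds a single CCAAT box at -45 to -41 and a CHR at -19 to -14.
Ube2c: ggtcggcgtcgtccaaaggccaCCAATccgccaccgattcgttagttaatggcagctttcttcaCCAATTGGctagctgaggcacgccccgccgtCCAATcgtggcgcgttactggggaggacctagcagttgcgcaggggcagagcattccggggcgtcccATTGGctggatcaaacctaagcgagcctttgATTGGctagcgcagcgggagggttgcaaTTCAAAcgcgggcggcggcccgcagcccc
Kif11: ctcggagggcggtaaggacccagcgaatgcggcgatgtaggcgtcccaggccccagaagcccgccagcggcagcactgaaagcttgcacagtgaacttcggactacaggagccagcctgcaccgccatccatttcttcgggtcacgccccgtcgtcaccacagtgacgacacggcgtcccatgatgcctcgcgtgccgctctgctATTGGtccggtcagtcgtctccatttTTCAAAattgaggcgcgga

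Ccnb1 and E2f8 are the genes with an E2F site that had the smallest p. In both, the E2F site overlaps a CCAAT box on the opposite strand, so the same letters were counted for each. Ccnb1 (chr13:100786487-100786736, minus strand) has a further CCAAT box at -67 to -63 and no CHR in this window. E2f8 (chr7:48881597-48881846, minus strand) has a CHR at -20 to -15.
Ccnb1: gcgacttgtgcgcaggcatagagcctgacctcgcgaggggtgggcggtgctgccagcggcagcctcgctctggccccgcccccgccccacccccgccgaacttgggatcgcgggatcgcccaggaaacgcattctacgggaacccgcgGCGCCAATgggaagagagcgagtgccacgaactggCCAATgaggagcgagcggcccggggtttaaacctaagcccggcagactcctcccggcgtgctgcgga
E2f8: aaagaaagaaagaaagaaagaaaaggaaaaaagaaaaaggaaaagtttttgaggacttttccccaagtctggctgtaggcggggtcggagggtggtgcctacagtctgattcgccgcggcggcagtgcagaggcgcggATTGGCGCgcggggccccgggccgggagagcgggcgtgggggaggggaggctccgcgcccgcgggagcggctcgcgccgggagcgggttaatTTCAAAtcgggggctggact

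Mki67, the proliferation marker, and Mcm2, a helicase subunit, are shown because their proteins are common stains for dividing cells. Mki67 (chr7:135716380-135716629, minus strand) holds 2 CHR, 3 CCAAT boxes and an E2F site, and Mcm2 (chr6:88898781-88899030, minus strand) a CHR at -70 to -65 and a CCAAT box at -175 to -171.
Mki67: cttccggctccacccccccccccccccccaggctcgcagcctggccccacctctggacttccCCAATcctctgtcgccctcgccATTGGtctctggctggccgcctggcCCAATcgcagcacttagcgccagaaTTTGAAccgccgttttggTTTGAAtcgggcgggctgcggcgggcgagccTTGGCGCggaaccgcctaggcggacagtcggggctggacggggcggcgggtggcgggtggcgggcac
Mcm2: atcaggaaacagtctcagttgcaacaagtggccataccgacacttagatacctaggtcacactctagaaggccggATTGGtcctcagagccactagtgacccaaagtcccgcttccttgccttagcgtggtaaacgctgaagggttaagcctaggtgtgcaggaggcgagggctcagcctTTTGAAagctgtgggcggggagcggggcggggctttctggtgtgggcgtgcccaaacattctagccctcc

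Replication genes were the more abundant. On the scale of CPM per kilobase of exon, which allows levels to be compared between genes, the median in RC was 1.67 for the 17 replication genes and 0.346 for the 27 mitosis genes. Pcna, the sliding clamp of the polymerases, was the highest at 23.2 CPM per kb, followed by Ccne1 (5.25) and Mcm4 (4.49). The checkpoint kinase Bub1 (0.0887), the kinetochore motor Cenpe (0.0783) and the centromere protein Cenpf (0.0576) were the lowest. The lengths come from another annotation than the counts, so these levels are approximate. In reads, 33 of the 44 genes averaged under 100 counts per library, and the single counts ran from 1 (E2f8 in RC replicate 3) to 1108 (Pcna in RN replicate 2).

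**Figure D1:**
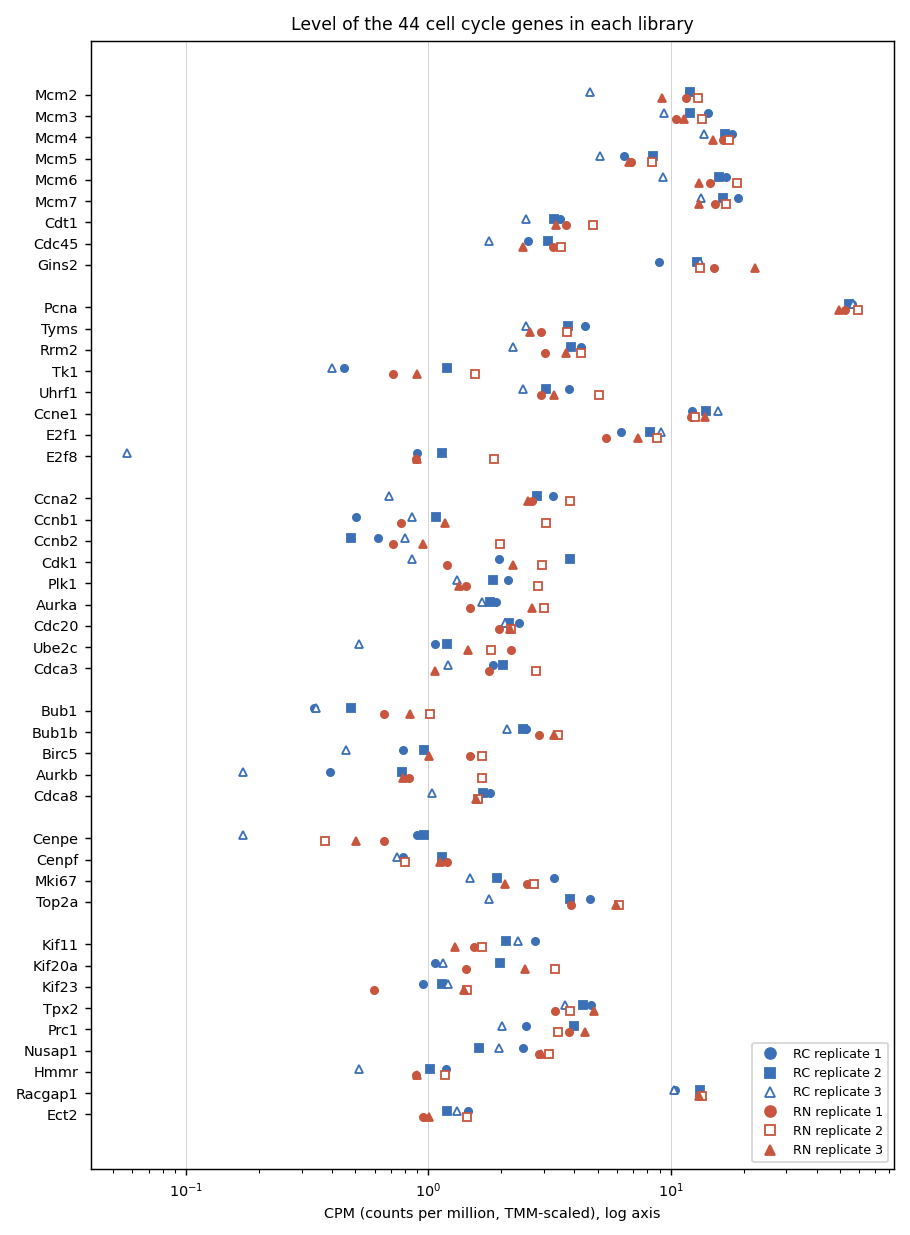
Level of each of the 44 genes in each library, in CPM on a log axis, with RC in blue, RN in red and 1 marker shape per library. Pcna lies highest, near 50 CPM in all 6 libraries, and the open blue triangle (RC replicate 3) lies at the left of most rows.

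None of the 44 genes differed between RN and RC by the study's thresholds, an adjusted p below 0.05 together with a change of 2-fold or more. Of all 14956 tested genes 0.0735% met them, 0.0602% higher and 0.0134% lower in RN. The smallest adjusted p was 0.377, for Bub1, and the largest 0.990, for Mcm3 (edgeR's quasi-likelihood test, Benjamini-Hochberg over all tested genes). At an unadjusted p under 0.05, 2 genes were higher in RN (Bub1 and Ube2c) and 1 was lower (Kif11), where 5.44% of all tested genes were higher and 6.33% lower. The share of genes at that level in edgeR, 3 of 44, was below the 11.8% of all tested genes. DESeq2, which called 1.15% of the genes it tested, also called 0 of the 44. Only 1 of them, Gins2, had an unadjusted p under 0.05 in DESeq2, where 9.41% of all genes it fitted did. A fitted change of 2-fold or more, whatever its p, was seen upwards in Bub1, Ccnb1 and Aurkb (1.43% of all tested genes) and downwards in none (1.75%).

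The direction was less even than over all genes. The log2FC was above 0 for 32 of the 44 genes (72.7%), against 50.8% of all tested genes, and its median was 0.18, against 0.0037. The median was 0.14 for the replication genes, with 11 of 17 above 0, and 0.23 for the mitosis genes, with 21 of 27 above 0. In 7 genes every RN mouse lay above every RC mouse in CPM (Gins2, Ube2c, Bub1, Bub1b, Birc5, Aurkb and Nusap1), and in 1 gene, Kif11, every RN mouse lay below. Over all tested genes these shares were 8.18% and 8.12%. Genes of a shared program and the same 6 mice are not independent of each other, and over all 44 genes the lean towards RN was not seen without RC replicate 3, as described further on.

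**Figure D2:**
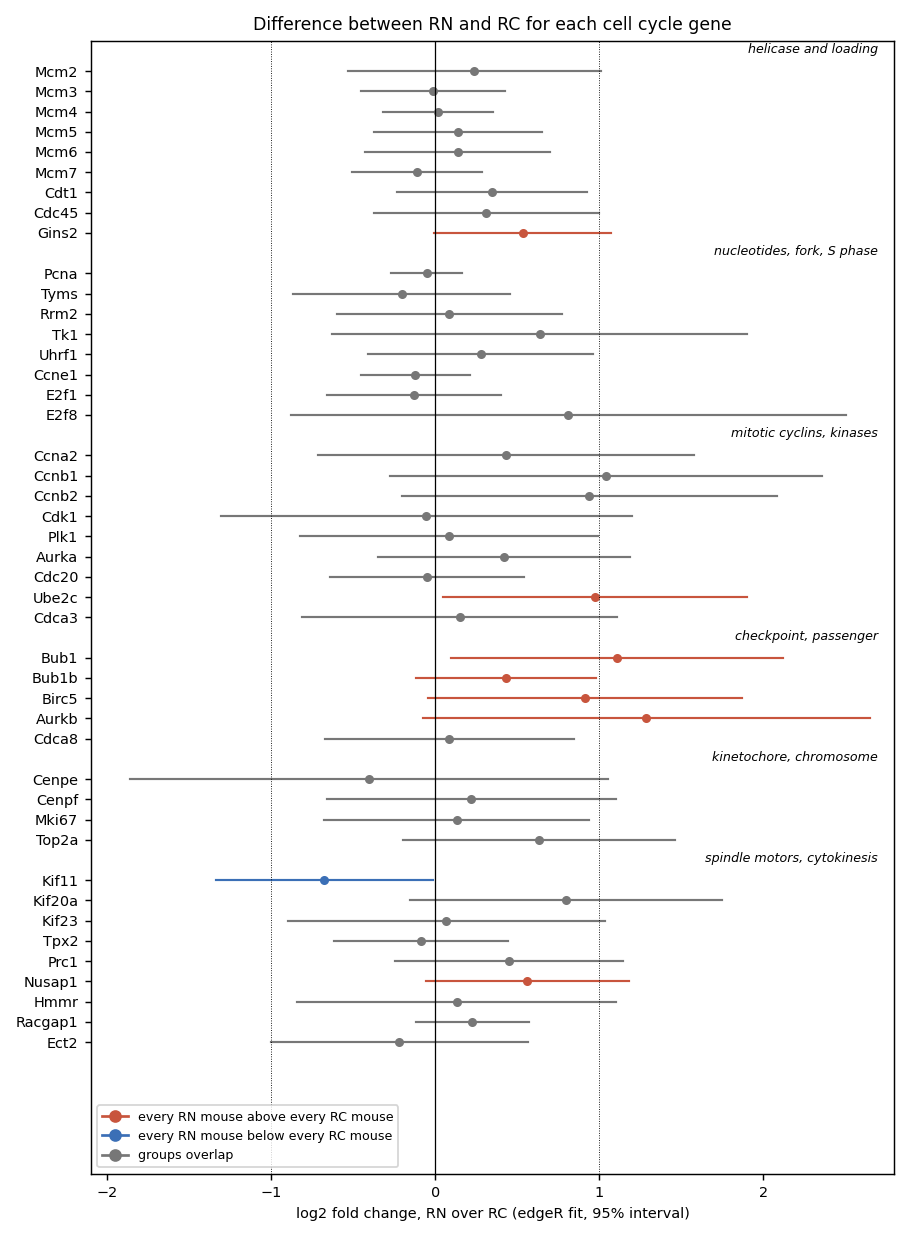
Log2FC of RN over RC for each gene with its 95% interval from edgeR's fit, ordered by role, with dotted lines at a change of 2-fold. Red marks the 7 genes whose RN mice all lay above the RC mice, blue marks Kif11, whose RN mice all lay below, and the intervals are narrowest for Pcna and widest for E2f8.

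The replicative helicase and the factors that load and start it had a median log2FC of 0.14 over 9 genes, with 7 of the 9 above 0. Without RC replicate 3 the median was -0.087, with 3 of the 9 above 0. Mcm4, a core helicase subunit, had RC counts of 319, 280 and 239 and RN counts of 277, 326 and 268. The ranges overlapped, and the log2FC was 0.02, with a 95% interval of -0.32 to 0.35. Mcm2 had 212, 201 and 81 reads across the RC mice and 194, 242 and 164 across the RN mice, a log2FC of 0.24 (SE 0.336, adjusted p = 0.863). Its RC replicate 3 lay far under the other 5 mice, and without that mouse the log2FC was -0.09.

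The other MCM subunits lay near 0, and none passed the test. Mcm3 and Mcm7 had log2FC values of -0.01 and -0.11, and Mcm5 and Mcm6 both 0.14. Mcm6 had RC counts of 303, 266 and 162 and RN counts of 244, 352 and 233, again with its lowest value in RC replicate 3. Cdt1, which brings the helicase to origins, had RC counts of 62, 55 and 44 and RN counts of 62, 89 and 60. Cdc45, which helps to activate it, had RC counts of 46, 52 and 31 and RN counts of 55, 66 and 44. Both sets of ranges overlapped, with log2FC values of 0.35 and 0.31.

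Gins2, a subunit of the GINS complex that joins Cdc45 and the helicase, was the gene among them whose groups did not overlap, with RC counts of 160, 215 and 230 and RN counts of 254, 248 and 399. Every RN mouse lay above every RC mouse in CPM, the log2FC was 0.53 (95% interval -0.01 to 1.07), and the test was not passed (adjusted p = 0.428). Without RN replicate 3, its highest mouse, the log2FC was 0.28. In the GRCm38 annotation, 67.3% of the exon bases of Gins2 lie opposite exons of Gse1 on the other strand. Gse1, a chromatin gene, had RC counts of 955, 791 and 623 and RN counts of 833, 1051 and 868, so its groups overlapped. The use of strand in counting was not given in the sources used here, and reads of the pair cannot then be told apart.

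Genes of nucleotide supply, of the fork and of S phase control centred near 0, with a median log2FC of 0.02 over 8 genes. Pcna had 1000, 914 and 983 reads across the RC mice and 879, 1108 and 883 across the RN mice. This was the most precise measurement of the group, with a log2FC of -0.05 and a 95% interval of -0.27 to 0.16, or 0.830 to 1.12 times the RC level. Ccne1, the cyclin that starts S phase, had RC counts of 219, 234 and 273 and RN counts of 203, 235 and 248, with a log2FC of -0.12 (95% interval -0.46 to 0.21). E2f1, the activator of S phase genes, had 111, 138 and 159 reads across the RC mice and 91, 164 and 131 across the RN mice, with a log2FC of -0.13.

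The nucleotide enzymes spread to both sides. Tyms, which makes thymidylate, had RC counts of 79, 63 and 44 and RN counts of 49, 70 and 47 (log2FC -0.21, 95% interval -0.87 to 0.45). Rrm2, the regulated subunit of ribonucleotide reductase, had 76, 65 and 39 reads across the RC mice and 51, 80 and 66 across the RN mice (0.09, -0.60 to 0.77). Tk1, the thymidine salvage kinase, was near the floor in some mice, with RC counts of 8, 20 and 7 and RN counts of 12, 29 and 16, and its interval of -0.63 to 1.90 was accordingly wide. In all 3 enzymes the groups overlapped.

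Uhrf1, which carries DNA methylation over to new strands, had RC counts of 68, 51 and 43 and RN counts of 49, 95 and 59, with a log2FC of 0.28. E2f8, a repressor that ends the S phase program, had 16, 19 and 1 reads across the RC mice and 15, 35 and 16 across the RN mice. Without the near-absent value of RC replicate 3, the log2FC of E2f8 went from 0.81 to 0.27.

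The mitotic cyclins and kinases had a median log2FC of 0.42 over 9 genes, and 7 of the 9 were above 0. Without RC replicate 3 the median was 0.0025, with 5 of the 9 above 0. Ccnb1, a cyclin B that drives entry into mitosis, had RC counts of 9, 18 and 15 and RN counts of 13, 57 and 21. The value of 57 in RN replicate 2 stood alone, the groups overlapped, and the log2FC was 1.04 (SE 0.574, adjusted p = 0.559). Without that mouse it was 0.26. Ccnb2 had the same shape, with RC counts of 11, 8 and 14 and RN counts of 12, 37 and 17 and a log2FC of 0.94 (adjusted p = 0.537), which was 0.39 without RN replicate 2.

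Ccna2, the cyclin of S phase and G2, had 58, 47 and 12 reads across the RC mice and 45, 72 and 46 across the RN mice. Here the low mouse was RC replicate 3, and the log2FC went from 0.43 to 0.0025 without it. Cdk1, the partner kinase of these cyclins, spread widely within both groups, with RC counts of 35, 64 and 15 and RN counts of 20, 55 and 40, and a log2FC of -0.05 (95% interval 0.404 to 2.30 times the RC level). In Cdk1, as in the 3 cyclins, the groups overlapped and the test was not passed.

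Cdc20, which directs the anaphase-promoting complex to its targets, had RC counts of 42, 36 and 36 and RN counts of 33, 41 and 39, a log2FC of -0.05 (95% interval -0.64 to 0.54). Ube2c, the ubiquitin-conjugating enzyme of the same complex, had 19, 20 and 9 reads across the RC mice and 37, 34 and 26 across the RN mice. All 3 RN mice lay above all 3 RC mice for Ube2c, with a log2FC of 0.97 (SE 0.402, adjusted p = 0.395). It is the gene whose promoter held the most CCAAT boxes of the 6 shown. In the GRCm38 annotation, 22.8% of its exon bases lie opposite Tnnc2, a muscle gene that had 0 to 11 counts per library and did not pass the filter.

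Aurka and Plk1, kinases of the spindle poles, gave log2FC values of 0.42 and 0.08. Aurka had RC counts of 34, 30 and 29 and RN counts of 25, 56 and 48, so its RN mice lay on both sides of the RC mice. Plk1 had 38, 31 and 23 reads across the RC mice and 24, 53 and 24 across the RN mice. Cdca3, which helps to degrade the mitosis inhibitor Wee1, was similar, with RC counts of 33, 34 and 21 and RN counts of 30, 52 and 19 and a log2FC of 0.15. In all 3 genes RN replicate 2 was the highest mouse.

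The spindle checkpoint and the chromosomal passenger complex had the largest median of the 6 roles, 0.91 over 5 genes, with few counts in Bub1, Aurkb and Birc5. All 5 log2FC values were above 0, as were 50.8% of all tested genes. In 4 of the 5 genes the RN mice lay wholly above the RC mice, against 8.18% of all tested genes. RC replicate 3 had the lowest CPM in 4 of the 5, and these genes share a program and the same 6 mice. Bub1, a kinase that recruits the checkpoint to kinetochores, had RC counts of 6, 8 and 6 and RN counts of 11, 19 and 15. Its log2FC of 1.11 (SE 0.441) had an unadjusted interval of 1.07 to 4.36 times the RC level, and its adjusted p was 0.377. Bub1b, which encodes the checkpoint protein BubR1, was better counted, with RC counts of 45, 41 and 37 and RN counts of 48, 64 and 59, and differed less, by 0.43 (SE 0.239, adjusted p = 0.559).

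Aurkb, the kinase of the passenger complex, had 7, 13 and 3 reads across the RC mice and 14, 31 and 14 across the RN mice, the largest log2FC of the 44 genes at 1.29 (SE 0.594, adjusted p = 0.458). Birc5, which encodes survivin, the subunit that targets the complex to centromeres, had RC counts of 14, 16 and 8 and RN counts of 25, 31 and 18, with a log2FC of 0.91 (SE 0.416, adjusted p = 0.450). Cdca8, which encodes borealin of the same complex, had 32, 28 and 18 reads across the RC mice and 27, 30 and 28 across the RN mice, and its groups overlapped at a log2FC of 0.09. Without RC replicate 3, the values were 0.90 for Aurkb, 0.67 for Birc5 and -0.12 for Cdca8, and the median of the 5 genes was 0.67. Aurkb lay at the floor of 3 counts in RC replicate 3, and Bub1 and Birc5 fell to 6 and 8 counts in RC. A filter of at least 10 counts in every library removed these genes, and the mitosis median over the 19 genes left was 0.15.

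Among the kinetochore, chromosome and proliferation markers, Mki67 had RC counts of 59, 32 and 26 and RN counts of 43, 51 and 37. The RN mice lay inside the RC range, and the log2FC was 0.13 (95% interval -0.68 to 0.94, adjusted p = 0.939). Top2a, the topoisomerase that untangles sister chromatids, had 83, 64 and 31 reads across the RC mice and 65, 114 and 106 across the RN mice. Its log2FC was 0.63 (adjusted p = 0.575) and went to 0.32 without RC replicate 3. Cenpe had RC counts of 16, 16 and 3 and RN counts of 11, 7 and 9 (log2FC -0.40, 95% interval -1.86 to 1.05), and Cenpf 14, 19 and 13 in RC and 20, 15 and 20 in RN (0.22, -0.66 to 1.10). All 4 genes had their lowest CPM of the 6 libraries in RC replicate 3.

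The spindle motors and cytokinesis genes included the single gene whose groups separated downwards. Kif11, the motor that pushes the spindle poles apart, had 49, 35 and 41 reads across the RC mice and 26, 31 and 23 across the RN mice, a log2FC of -0.68 (SE 0.288, adjusted p = 0.411). Leaving out each mouse in turn moved this value only between -0.76 and -0.57. Its promoter shares the CHR and CCAAT box with that of Ube2c, whose difference had the opposite sign. Both promoters were shown for their small p, and a link between elements and differences was not tested.

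Kif20a, a motor of the spindle midzone, was on the other side, with RC counts of 19, 33 and 20 and RN counts of 24, 62 and 45, with overlapping groups and a log2FC of 0.80 (adjusted p = 0.521). Of its exon bases, 29.3% lie opposite Cdc23 in the GRCm38 annotation, and Cdc23, a subunit of the anaphase-promoting complex, had a log2FC of 0.04. Nusap1, which bundles spindle microtubules, had RC counts of 44, 27 and 34 and RN counts of 48, 59 and 52. Its RN mice all lay above the RC mice, at a log2FC of 0.56 (SE 0.269, adjusted p = 0.478).

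The remaining genes of this role had overlapping groups. Racgap1 and Ect2, which position and switch on the contractile ring, had log2FC values of 0.23 and -0.22, with 95% intervals of 0.921 to 1.49 and 0.499 to 1.48 times the RC level. Racgap1 was the best counted mitosis gene, with RC counts of 185, 222 and 180 and RN counts of 221, 253 and 233. Prc1, which cross-links midzone microtubules, had 45, 67 and 35 reads across the RC mice and 64, 64 and 79 across the RN mice and a log2FC of 0.45. Kif23, Tpx2 and Hmmr, which act in the midzone and in spindle assembly, had log2FC values of 0.07, -0.09 and 0.13.

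**Figure D3:**
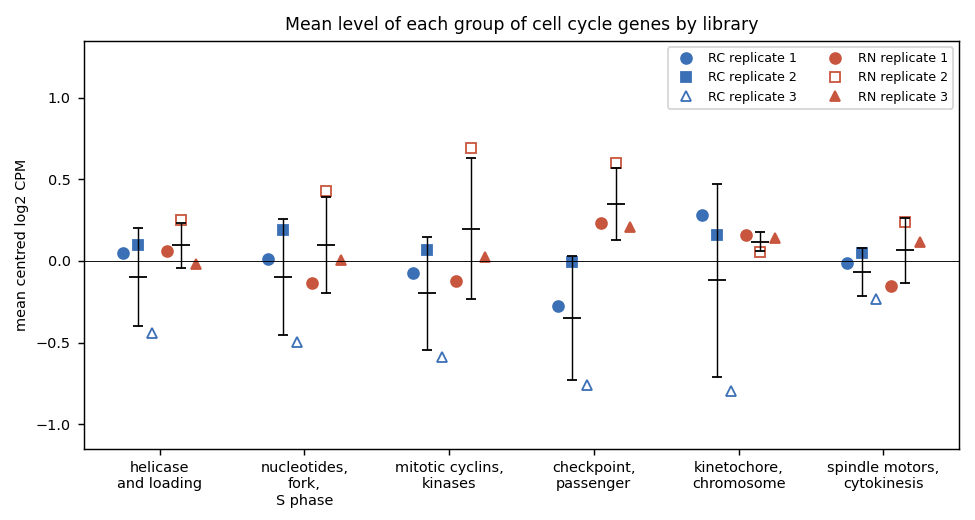
Mean centred log2 CPM of the genes of each role in each library, where 0 is a gene's mean over the 6 libraries, with the group mean (horizontal bar) and SD (whiskers, n = 3). RC replicate 3 (open triangle) is the lowest library in all 6 roles, and the groups are separated without overlap in the checkpoint and passenger role only.

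Across the group, 2 libraries held the extremes. RC replicate 3 had the lowest CPM of the 6 libraries in 27 of the 44 genes (61.4%), against 19.8% of all tested genes, and the highest in 2. RN replicate 2 had the highest in 24 (54.5%, against 13.9%) and the lowest in none. The lowest values of RC replicate 3 included 12 of the 17 replication genes and 15 of the 27 mitosis genes. As a mean of centred log2 CPM over the 44 genes, RC replicates 1, 2 and 3 scored -0.01, 0.09 and -0.51, and RN replicates 1, 2 and 3 scored -0.03, 0.39 and 0.06. The other mice of both groups thus lay close to each other and on both sides of 0.

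**Figure D4:**
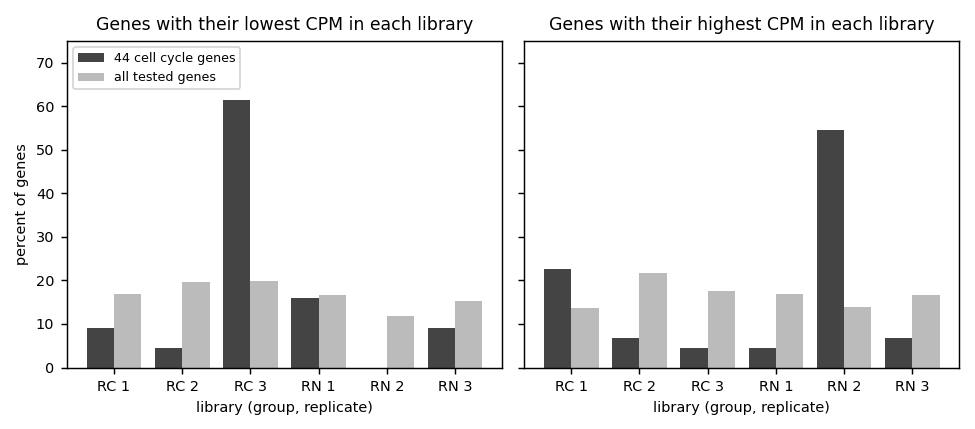
Percent of genes whose lowest (left) or highest (right) CPM of the 6 libraries fell in each library, for the 44 cell cycle genes (dark) and all 14956 tested genes (light). The dark bars peak at RC replicate 3 on the left (61.4%) and at RN replicate 2 on the right (54.5%), and there is no dark bar for RN replicate 2 on the left.

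Over all 44 genes, the lean towards RN depended on these mice. Without RC replicate 3, the median log2FC of the 44 genes was -0.0039, with 22 above 0 and none at an unadjusted p under 0.05 in edgeR. Without RN replicate 2, the median was 0.06 and 24 genes were above 0. By phase, the median without RC replicate 3 was -0.03 for replication, with 6 of 17 above 0, and 0.14 for mitosis, with 16 of 27 above 0. Without RN replicate 2 it was -0.04 for replication and 0.22 for mitosis. Leaving out RC replicate 2, which held the most choroid plexus transcripts, gave a median of 0.35 with 33 above 0, and the remaining mice gave 0.23 to 0.32. The 12 choroid plexus markers scored 1.71, 3.02 and -0.71 in RC and from -1.5 to -1.18 in RN. When that score was a term in the model, the median was 0.64 and 39 genes were above 0, with 10 of the 44 at an unadjusted p under 0.05, where 9.21% of all tested genes were, and a smallest adjusted p of 0.328. Every RC mouse scored above every RN mouse, so the score and the group are hard to tell apart. RC replicate 3 was the RC mouse nearest to the RN scores, and how far the values of this fit rest on that mouse was not tested.

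Other transcripts moved with the same libraries. The 10 tested fibroblast markers scored 0.31, 0.12 and -1.08 in RC replicates 1, 2 and 3 and 0.04, 0.94 and -0.32 in RN, so that they too were lowest in RC replicate 3 and highest in RN replicate 2. The summed CPM of all 11 fibroblast markers, tested or not, was 130 to 460 in RC and 196 to 488 in RN. Of the 10 tested, 9 had their lowest value in RC replicate 3. Col1a1 and Col1a2, the collagen I genes, were at 9.62 and 19.3 CPM in RC replicate 3 and at 39.1 and 76.0 CPM in RN replicate 2. The 12 myeloid markers scored -0.0019, -0.10 and -0.25 in RC and -0.01, 0.41 and -0.04 in RN. The 10 tested hypothalamic markers, lowest in RC replicate 3 at -2.23, were highest in RN replicate 1 at 1.22. The summed CPM of all 12 hypothalamic markers, tested or not, was 29.2 to 210 in RC and 271 to 444 in RN. Of the hypothalamic markers, Hmx2 and Hmx3 had 0 counts in RC replicate 3. Thalamic neuron markers were highest in RC replicate 3 at 0.82. The part of these tissues in the cell cycle values was not tested.

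Markers of the cells that can divide, or that the virus is aimed at, were read from the same fit. Oligodendrocyte precursor markers had a median log2FC of 0.07 over 12 genes, with Pdgfra at 0.12 and Cspg4 at -0.22. Microglia markers had 0.08 over 12 genes, with Tmem119 at -0.08 and P2ry12 at 0.12. No gene of either list was called, where 0.0735% of all tested genes were. Astrocyte markers were below 0 in 12 of 12 (median -0.43, 0 called) and endothelial markers in 11 of 12 (median -0.52). Of all tested genes, 50.8% were above 0. At an unadjusted p under 0.05 in edgeR, 9 astrocyte and 7 endothelial markers were lower (6.33% of all tested genes), and 0 were higher. Every RN mouse lay below every RC mouse in 10 and 5 of them (8.12%), and above in 0. Of the endothelial markers, Apln, a tip cell peptide, fell by 1.32 on the log2 scale (SE 0.148, adjusted p = 0.0383). Neural progenitor and neuroblast markers had a median of 0.51 over 14 genes with 0 called, and of 0.51 without RC replicate 3. At an unadjusted p under 0.05 in edgeR, 7 of the 14 were higher in RN and 1 was lower, against 5.44% and 6.33% of all tested genes. Every RN mouse lay above every RC mouse in 8 of the 14 and below in 1, against 8.18% and 8.12%. Of the 12 myeloid markers, Cd300a, an inhibitory receptor, rose by 1.23 on the log2 scale (SE 0.141, adjusted p = 0.0387), and the median of that list was 0.0031.

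How firmly the absence of calls can be read depends on the gene. The 95% interval lay within a 2-fold change in both directions for 20 of the 44 genes, 13 of 17 for replication and 7 of 27 for mitosis. For 6 genes it lay within 1.5-fold, among them Pcna and Mcm4. The median of the mean counts per library was 132 for the replication genes and 32.2 for the mitosis genes. For the other 20 mitosis genes the interval took in a change of 2-fold in at least 1 direction, so that a difference of that size lay within the error.

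The rest of the machinery was read from lists chosen by role. Of 48 other replication genes, 45 were tested, with 0 called, a median log2FC of 0.02 and 26 above 0. The smallest p of these belonged to Orc6, a subunit of the origin recognition complex (0.30, adjusted p = 0.388), Pola2, of the primase polymerase (0.35, adjusted p = 0.516), and Gins4, a partner of Gins2 (-0.21, adjusted p = 0.562). Gins4 had 349, 320 and 337 reads across the RC mice and 265, 341 and 286 across the RN mice, and its RN mice all lay below the RC mice in CPM, opposite to Gins2.

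Of 70 other mitosis genes, 52 were tested, with 0 called, a median of 0.14 and 32 above 0. At an unadjusted p under 0.05, 5 were higher and 2 were lower, where 5.44% of all tested genes were higher and 6.33% lower. Anln, a scaffold of the contractile ring that oligodendrocytes also express, had RC counts of 1238, 1057 and 1223 and RN counts of 900, 1028 and 781 (log2FC -0.41, adjusted p = 0.185). Spag5, a spindle protein, had 127, 107 and 123 reads across the RC mice and 67, 98 and 63 across the RN mice (-0.69, adjusted p = 0.227). Kif22, a chromosome-pushing kinesin, went the other way with RC counts of 26, 17 and 12 and RN counts of 31, 49 and 44 (1.13, adjusted p = 0.261). In all 3 genes, taken for their small p, the groups did not overlap in CPM. Of the 52 tested, RN mice lay wholly above RC in 4 and wholly below in 4. Over all tested genes these shares were 8.18% and 8.12%.

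The smallest p in the wider cycle belonged to genes of G1 and of its brakes. Ccnd1, the cyclin that answers growth signals in G1, had RC counts of 2129, 2039 and 1766 and RN counts of 3042, 4697 and 3379. Every RN mouse lay above every RC mouse, and the log2FC was 0.86 (SE 0.141, 95% interval 0.53 to 1.18), with an adjusted p of 0.0696 by edgeR and 3.70e-06 by DESeq2, below the 2-fold threshold in both. Ccnd2, a paralogue prominent in neural progenitors, had 1101, 1181 and 858 reads across the RC mice and 575, 702 and 821 across the RN mice, the opposite direction at -0.62 (adjusted p = 0.169 by edgeR and 0.0159 by DESeq2). Ccnd3 was at -0.40 (adjusted p = 0.373) with overlapping groups. Over the 8 G1 cyclins and CDKs, 0 were called and the median was -0.15.

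Of 27 inhibitors and brakes of the cycle, 26 were tested, with 0 called by edgeR and a median of 0.02. Gadd45b, a stress-induced growth arrest gene, had RC counts of 147, 171 and 114 and RN counts of 264, 334 and 314, a log2FC of 1.03 (SE 0.183) with an adjusted p of 0.0932 by edgeR. DESeq2 called it, at an adjusted p of 0.000220. Gadd45a, of the same family, was at 0.53 (adjusted p = 0.355), and Ccng1, a p53 target, at -0.34 (adjusted p = 0.249). Cdkn1a, which encodes the p53-induced inhibitor p21 and was named after its values were seen, had 1678, 1911 and 1806 reads across the RC mice and 1555, 2453 and 2075 across the RN mice, with overlapping groups and a log2FC of 0.12 (SE 0.138, adjusted p = 0.813).

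**Figure D5:**
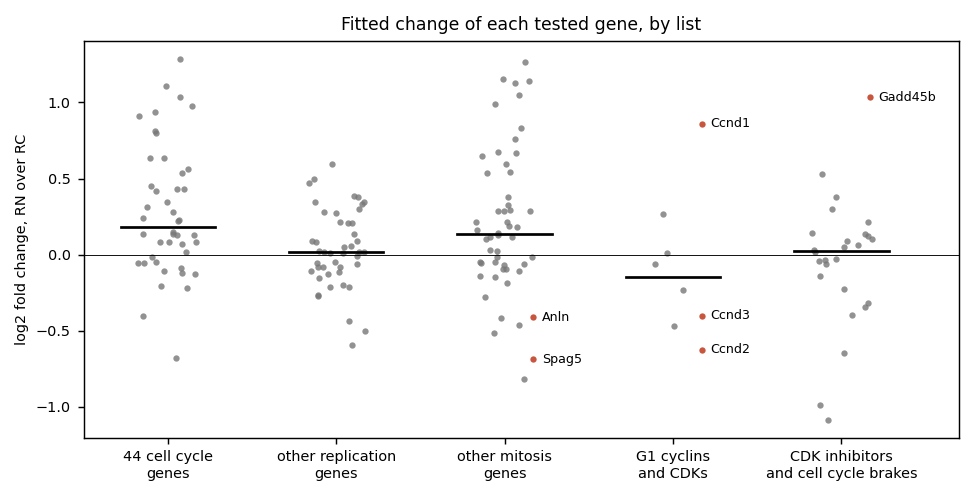
Log2FC of RN over RC for each tested gene of the 44 cell cycle genes and of 4 related lists, with the median of each list as a bar. The medians lie between -0.15 and 0.18, and labelled in red are Ccnd1 and Gadd45b at the top of their lists, with Ccnd2, Ccnd3, Anln and Spag5 below 0.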

How the data were processed

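Bulk RNA of the thalamus was sequenced from 3 RC and 3 RN mice, and groups and replicate numbers were taken from the labels. The authors deposited whole-number read counts per gene, not normalized, with 1 column per mouse. The submitters' processing notes list GRCm39, fastp 0.18.0, FastQC, HISAT2 2.2.4 and RSEM 1.2.19 without their roles. The annotation, the use of strand and the treatment of reads shared between genes are not given in the sources used here. This leaves 14 of the 44 genes, whose exons overlap another gene, and 4 with named pseudogenes (Ccnb1, Ccnb2, Tyms and Pcna) less certain.

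Low genes were removed with filterByExpr of edgeR 4.0.16 (R 4.3.3, minimum count 10), libraries were scaled by TMM, and group was the only term of the quasi-likelihood fit. P-values were adjusted by Benjamini-Hochberg over the 14956 tested genes. Calls needed an adjusted p below 0.05 together with a change of 2-fold or more. The SE is the log2 fold change divided by the square root of F, and 95% intervals use the t distribution of the fit and are not adjusted. The prior count was 2 for log2 CPM and 0.125 for fitted log2 fold changes. A score is the mean centred log2 CPM of a list in a library and was not tested. DESeq2 1.42.0 was an alternative, as were its size factors in edgeR, other filters, no fold threshold, a replicate block, a covariate of choroid plexus score and the omission of single mice.

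The members and lists were chosen with earlier results of these data known. The text names every member, up to 3 genes of each related list by smallest p, Neurod1, and the first 2 genes of a marker list where its level is given. Gse1, Tnnc2 and Cdc23, which overlap members, and Apln, Cd300a, Hmx2, Hmx3 and Cdkn1a were named after their values were seen. Promoters were printed for the 2 members of smallest p with a CHR, the 2 with an E2F site, Mki67 and Mcm2.

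Exon lengths and overlaps came from GENCODE M21 (GRCm38) and promoters from a RefSeq table (GRCm38.p6), matched by symbol. No coordinates were joined to the files' build.

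RC and RN share replicate numbers, and whether the numbers stand for a litter or day is not given in the sources used here. Across genes, the deviations from the group means of same-numbered mice correlated at 0.173, 0.120 and 0.209. For mice of unlike number the values ran from -0.285 (RC replicate 1 and RN replicate 3) to 0.156 (RC replicate 1 and RN replicate 2).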

Additional observations from a re-analysis of the deposited data

How the results depend on the processing

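No cell cycle gene was called under any of the alternatives, with 34 of the 44 testable when at least 10 counts were required in every library. The replicate block left 0 of them called, with 4 (Aurkb, Birc5, Gins2 and Ube2c) higher at an unadjusted p under 0.05 (13.6% of all tested genes passed it in either direction), and raised the calls over all genes from 11 to 22. Those calls were 186 with DESeq2, 43 without the filter, 1 with the choroid plexus covariate and 3 to 30 with a mouse left out. The block changed no call of the related cell cycle lists, in which DESeq2 called 1 gene, Gadd45b (log2 fold change 1.04), and edgeR 0. With the choroid plexus covariate the median log2 fold change was 0.64 for the 44 genes, 0.58 for replication and 0.65 for mitosis, and the signs turned for Mcm3 (0.31), Mcm7 (0.15), Tyms (0.28), Cdk1 (1.75), Cdc20 (0.023), Cenpe (1.5), Tpx2 (0.16) and Ccnd3 (0.061). Neurod1 kept its value of 3.77 there but not its call (adjusted p = 0.0913, edgeR). The choroid plexus score was higher in every RC mouse than in any RN mouse, so score and group are hard to tell apart in that fit. The block turned the sign of Cdk1 (0.039). With a mouse left out, the medians ran from -0.0039 to 0.35 for the 44 genes, from -0.035 to 0.26 for replication and from 0.14 to 0.43 for mitosis. The cause of these shifts was not tested. The log2 fold changes whose sign turned with a mouse left out ranged as follows: Mcm2 from -0.091 to 0.44, Mcm3 from -0.16 to 0.14, Mcm4 from -0.087 to 0.099, Mcm5 from -0.022 to 0.35, Mcm6 from -0.089 to 0.30, Mcm7 from -0.23 to 0.019, Pcna from -0.14 to 0.0030, Rrm2 from -0.15 to 0.26, Uhrf1 from -0.0072 to 0.45, E2f1 from -0.31 to 0.035, Cdk1 from -0.44 to 0.59, Plk1 from -0.36 to 0.27, Cdc20 from -0.093 to 0.0039, Cdca3 from -0.26 to 0.43, Cdca8 from -0.12 to 0.24, Mki67 from -0.092 to 0.53, Kif23 from -0.14 to 0.37, Tpx2 from -0.24 to 0.028 and Hmmr from -0.15 to 0.37. The number of mice and the counts of the mitosis genes, mostly under 100, limit what could be detected.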
